A study of Mus musculus with 27 samples.

Results

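The bone morphogenetic protein (BMP) genes followed here are 10 of the 57683 features in the deposited count table. They were picked by symbol as BMP pathway genes, by a rule that uses no measured value, although earlier results of these data were known at the time. They comprise 6 ligand genes (Bmp2, Bmp4, Bmp5, Bmp6, Bmp7 and Bmp10), 2 receptor genes (Bmpr1a and Bmpr2) and 2 genes of secreted modulators (Bmper and Grem1). All 10 symbols were found, each once.

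BMPs are secreted dimers of the transforming growth factor beta superfamily. They assemble type I and type II receptor kinases at the cell surface, which phosphorylate SMAD1, SMAD5 and SMAD9. These move into the nucleus with SMAD4 and switch on targets such as the Id genes and the inhibitory Smad6 and Smad7, while secreted antagonists such as noggin, chordin and gremlins bind the ligands outside the cell. In the mouse heart, BMP2 and BMP4 act in endocardial cushion and outflow tract formation, and BMP10 sustains the growth of trabecular cardiomyocytes.

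Polyadenylated RNA had been sequenced from 27 hearts of the inbred mouse strain C57BL/6J, 1 library per heart. The groups were 7 whole embryonic hearts at embryonic day E13.5, of unknown sex; ventricular apexes of 6 unoperated adults at 16 weeks and 6 at 6 weeks, all labelled male; 4 apexes at 12 weeks of age after 4 weeks of transverse aortic constriction (TAC), with 3 labelled male and 1 female; and 4 apexes of sham-operated mice at 12 weeks, labelled male. TAC narrows the aorta surgically and loads the left ventricle with pressure. Whole embryonic hearts include atria and valves that an apex does not, so developmental stage and the piece of heart taken cannot be told apart.

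Total counts per library were 7543375 to 12646039 at E13.5, 2164604 to 2642307 at 16 weeks, 2092270 to 2682955 at 6 weeks, 10411417 to 11846819 in TAC and 7958592 to 11561952 in sham hearts. The labels give unoperated adults a different base quality encoding from the rest, so E13.5 was set both against them and against sham hearts, which shared its encoding and depth range. Both comparisons use the same 7 embryos, and the sham hearts serve again in the TAC comparison. Y-linked counts went against the sex label in 2 libraries each of the 16-week, 6-week, TAC and sham groups. Cardiomyocyte markers were present in every group, at a summed 16200 to 21400 CPM (counts scaled to library size) at E13.5 and 84400 or more in each adult library. In TAC hearts the load markers Nppa, Nppb, Myh7 and Acta1 were all higher than in sham hearts (log2 fold changes 3.77, 1.79, 2.44 and 4.56; edgeR's quasi-likelihood test, Benjamini-Hochberg adjusted p = 5.4e-08, 0.00685, 0.000903 and 0.000169). Levels below are CPM scaled by TMM factors over all 27 libraries.

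In mm9, the build of the files, the ligand genes were Bmp2 (ENSMUSG00000027358) at chr2:133377895-133388621, Bmp4 (ENSMUSG00000021835) at chr14:47003195-47010344, Bmp5 (ENSMUSG00000032179) at chr9:75623171-75748117, Bmp6 (ENSMUSG00000039004) at chr13:38437802-38592183, Bmp7 (ENSMUSG00000008999) at chr2:172693513-172765822 and Bmp10 (ENSMUSG00000030046) at chr6:87379027-87384486. The receptor genes were Bmpr1a (ENSMUSG00000021796) at chr14:35224255-35315732 and Bmpr2 (ENSMUSG00000067336) at chr1:59821481-59927703. The modulator genes were Bmper (ENSMUSG00000031963) at chr9:23028015-23289642 and Grem1 (ENSMUSG00000074934) at chr2:113586321-113598803. Exonic bases outside every other annotated feature made up 30.2% of Grem1, 53.3% of Bmp5 and 55.8% of Bmpr1a, and 90.2% or more of the other 7. The libraries carry no strand and the counting mode is not given in the sources used here, so reads in shared bases may be missing from these counts. Comparisons between genes therefore use CPM per kilobase of own exonic bases.

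The 250 bases before the annotated start are shown for Bmp10 and Bmp6, the ligand with almost no adult counts and the ligand most abundant in adults. They come from RefSeq on GRCm38.p6, a later build than the mm9 of the counts, and 8 of the 10 genes matched, all but Bmp2 and Bmp7. Capitals mark AGATAA, a motif of GATA transcription factors, on either strand. The Bmp10 window is chr6:87428744-87428993 and the Bmp6 window is chr13:38345466-38345715, both on the plus strand.
Bmp10: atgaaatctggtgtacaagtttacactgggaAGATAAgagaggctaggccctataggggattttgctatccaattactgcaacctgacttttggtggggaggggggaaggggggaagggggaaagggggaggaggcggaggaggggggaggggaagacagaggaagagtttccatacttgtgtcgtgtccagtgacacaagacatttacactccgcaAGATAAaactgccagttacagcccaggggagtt
Bmp6: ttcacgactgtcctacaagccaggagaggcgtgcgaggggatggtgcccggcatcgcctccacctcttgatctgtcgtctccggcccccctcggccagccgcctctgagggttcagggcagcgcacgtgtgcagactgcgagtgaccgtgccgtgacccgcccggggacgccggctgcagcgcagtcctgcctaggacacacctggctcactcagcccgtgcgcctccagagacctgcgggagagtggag
AGATAA occurred at 219 and at 33 bases before the Bmp10 start and in no other of the 8 windows. Of 32851 RefSeq windows of 250 bases, 9.99% held it. The Bmp6 window was 68.8% G and C, against 52% in the Bmp10 window. GGCGCC, the palindromic SMAD motif of BMP-responsive genes, lay in the windows of Bmpr1a, Bmpr2 and Grem1, at 198, 105 and 78 bases before the start, and in 9.59% of all windows. The E box CANNTG, present in 66.2% of all windows, occurred in those of Bmp4 and Bmp6. TATAAA (12.4% of all windows) and the T-box motif GGTGTGA (3.33%) were in none of the 8. Both strands were searched, and these matches describe letters only.

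Whole embryonic hearts carried a different mix of BMP ligand RNA from adult apexes. Bmp7 and Bmp10 led at E13.5, while Bmp6 led in each adult group. Of the 6 ligands, 5 were higher at E13.5 than in unoperated adults and Bmp6 was lower, and the same directions were called against sham hearts. Over all features tested, 44.1% were higher and 39.7% lower against unoperated adults, and 40.7% and 35.6% against sham. In these bulk samples, fewer cells of a type and less RNA per cell cannot be told apart.

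**Figure D1:**
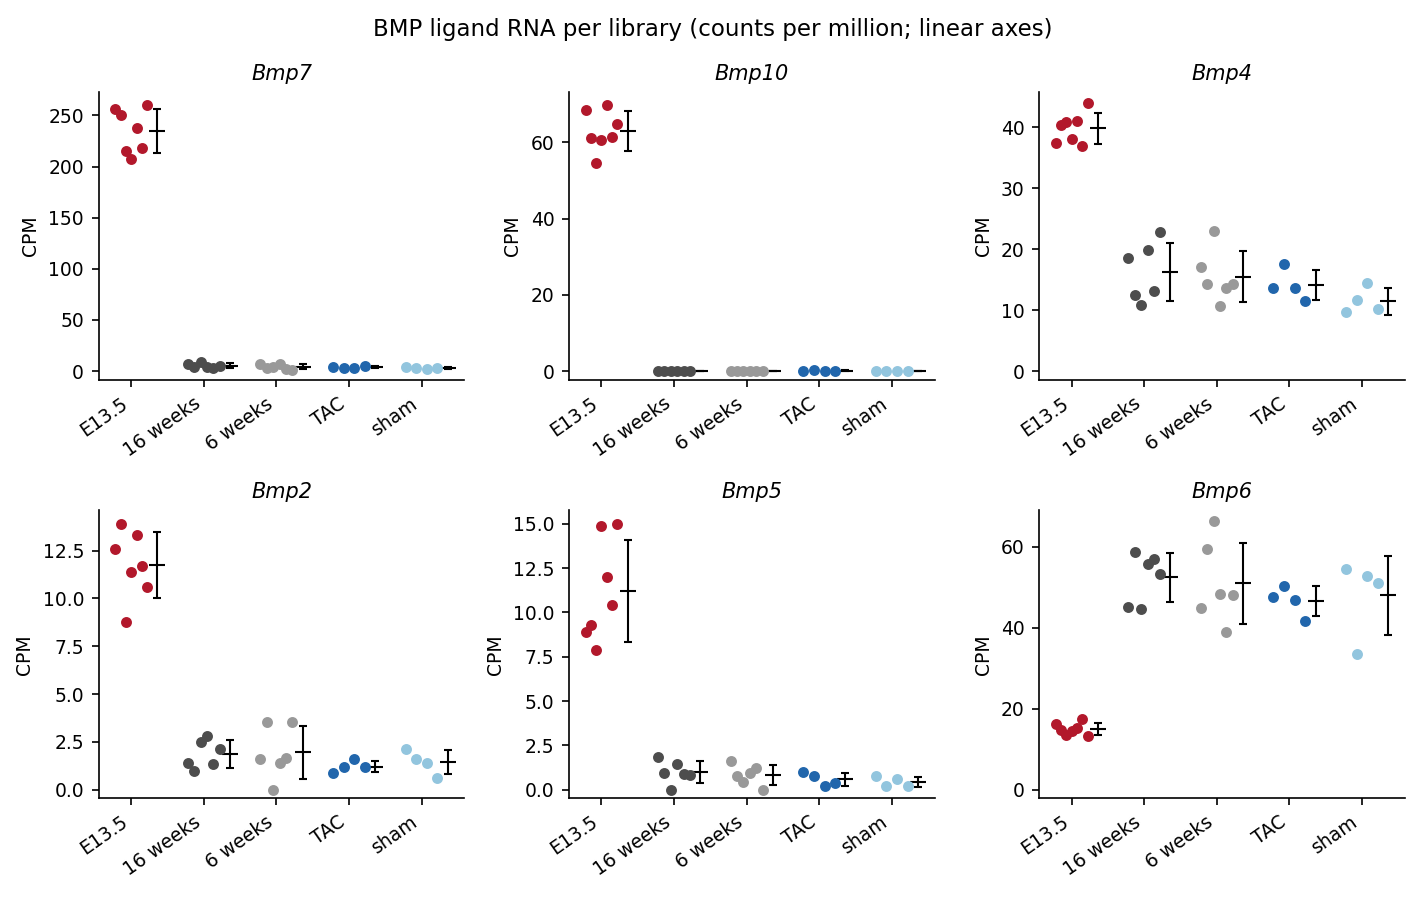
CPM of each BMP ligand gene in every library (points), with group mean and SD (black), for E13.5 (n = 7), 16 weeks and 6 weeks (n = 6 each), TAC and sham (n = 4 each). E13.5 libraries stand above every adult library for Bmp7, Bmp10, Bmp4, Bmp2 and Bmp5, and below every adult library for Bmp6 (13.3 to 17.4 against 33.6 to 66.3 CPM). How many of all features separate in this way was not counted.

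Bmp7, which encodes a ligand of the BMP5/6/7 subgroup, ranged from 207 to 260 CPM at E13.5 (median 238). It ranged from 2.65 to 8.94 CPM at 16 weeks (median 4.91) and from 1.52 to 7.38 CPM at 6 weeks (median 3.41). The TAC libraries had 4.34, 2.87, 3.11 and 5.09 CPM, against 4.31, 3.33, 2.16 and 3.16 CPM in sham libraries. No adult library came near an embryonic one. The fitted log2 fold change of E13.5 was 5.61 ± 0.128 (SE) against unoperated adults and 6.05 ± 0.129 against sham, with adjusted p = 4.66e-24 and 3.86e-19 (edgeR's quasi-likelihood test, Benjamini-Hochberg over all features). The 4 adult groups overlapped one another.

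Bmp10, a ligand of cardiac origin that also signals to endothelium through ACVRL1, ranged from 54.6 to 69.7 CPM at E13.5 (median 61.5), or 645 to 1213 counts per library. No count fell on it in any of the 12 unoperated adult libraries. The sham libraries had 1, 0, 0 and 0 counts and the TAC libraries 0, 2, 1 and 0. The gene was thus near or at zero in every adult apex. Against a floor of 3 counts over the 12 unoperated adults, its RNA was at least 564-fold higher at E13.5. Against the single sham count the ratio was 2150, with a 95% Poisson interval of 386 to 85000 that covers counting error only.

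Bmp2 and Bmp4, close relatives with roles in cushion and outflow tract development, were higher at E13.5 by different amounts. Bmp2 ranged from 8.74 to 13.9 CPM at E13.5 (median 11.7), against 0.964 to 2.83 CPM at 16 weeks (median 1.75) and 0 to 3.56 CPM at 6 weeks (median 1.62). Its TAC values were 0.89, 1.17, 1.61 and 1.16 CPM, and its sham values 2.1, 1.61, 1.39 and 0.612 CPM. Embryos lay apart from all adults, whose groups overlapped. For Bmp2 the log2 fold change was 2.61 ± 0.21 against unoperated adults (edgeR's quasi-likelihood test, adjusted p = 1.28e-12) and 2.95 ± 0.226 against sham (2.85e-10).

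Bmp4 ranged from 36.9 to 44 CPM at E13.5 (median 40.3), against 10.9 to 22.8 CPM at 16 weeks (median 15.9) and 10.6 to 22.9 CPM at 6 weeks (median 14.2). The TAC libraries had 13.7, 17.5, 13.7 and 11.5 CPM and the sham libraries 9.61, 11.7, 14.5 and 10.1 CPM. Bmp4 thus stayed readily measured in adults, and its embryonic rise had the smallest fold among the 5 higher ligands. The log2 fold change was 1.32 ± 0.106 against unoperated adults (edgeR's quasi-likelihood test, adjusted p = 1.33e-12) and 1.72 ± 0.101 against sham (3.82e-12).

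Bmp5, a further member of the BMP5/6/7 subgroup, ranged from 7.9 to 15 CPM at E13.5 (median 10.4). It ranged from 0 to 1.86 CPM at 16 weeks (median 0.923) and from 0 to 1.59 CPM at 6 weeks (median 0.857), which is 4 counts or fewer per library. TAC libraries had 1, 0.745, 0.214 and 0.347 CPM and sham libraries 0.774, 0.229, 0.616 and 0.204 CPM. Its spread among embryos was wide, with a mean of 11.2 ± 2.88 CPM (SD, n = 7), yet no adult library reached it. The fitted log2 fold change was 3.56 ± 0.253 against unoperated adults (edgeR's quasi-likelihood test, adjusted p = 7.65e-14) and 4.53 ± 0.328 against sham (2.92e-10).

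Bmp6, best known for controlling hepcidin and iron balance in the liver, went the other way. Its level was 13.3 to 17.4 CPM at E13.5 (median 14.8), against 44.7 to 58.8 CPM at 16 weeks (median 54.4) and 39 to 66.3 CPM at 6 weeks (median 48.3). TAC libraries had 47.5, 50.4, 46.8 and 41.6 CPM and sham libraries 54.5, 33.6, 52.8 and 51 CPM. Every embryo lay below every adult, and the 4 adult groups overlapped. For Bmp6 the log2 fold change was -1.79 ± 0.0919 against unoperated adults (edgeR's quasi-likelihood test, adjusted p = 2.56e-17) and -1.77 ± 0.111 against sham (1.62e-11).

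Scaled per kilobase, the 6 ligands summed to 141 ± 9.58 CPM per kb at E13.5 (SD, n = 7), against 29.2 ± 2.99 at 16 weeks, 27.9 ± 4.81 at 6 weeks, 25.3 ± 2.4 in TAC and 24.4 ± 3.67 in sham hearts. Bmp7 made up 41.3% ± 1.76 of the embryonic sum and Bmp10 35.3% ± 1.39. Bmp4 followed with 13.2% and Bmp6 with 3.88%. In adults, Bmp6 made up 65.8% at 16 weeks, 66.6% at 6 weeks, 67.4% in TAC and 71.4% in sham hearts, and Bmp4 22.4% to 25.9%. Bmp7 made up 3.38% to 4.73% on average in the adult groups. These shares do not depend on how libraries are scaled, since all 6 genes of a library share 1 factor.

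**Figure D2:**
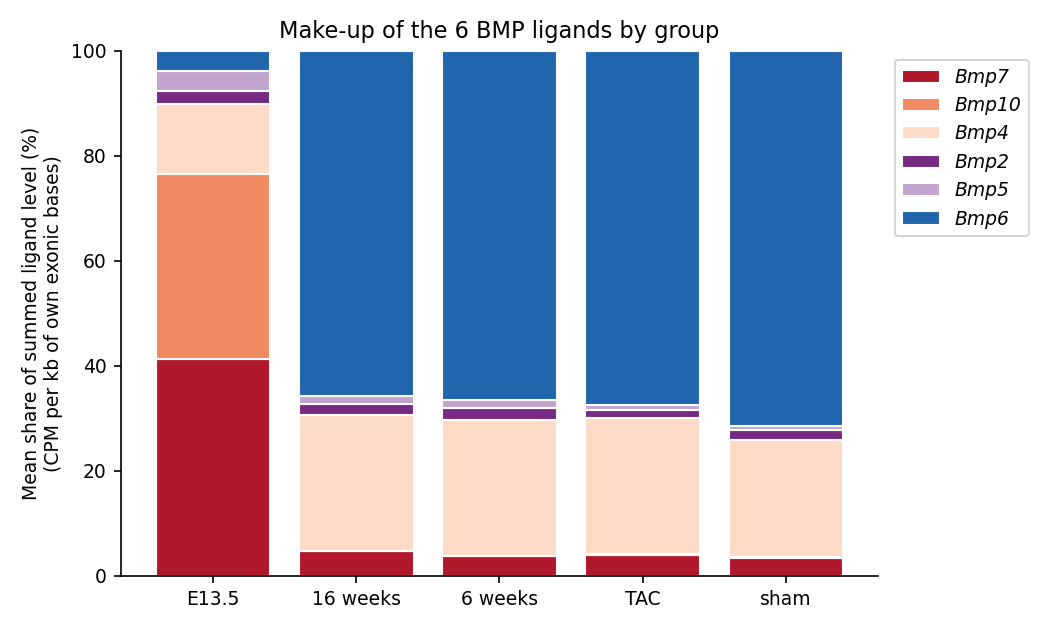
Mean share of each ligand gene in the summed level of the 6 ligands (CPM per kb of own exonic bases), by group, as stacked bars to 100%. Bmp7 (41.3%) and Bmp10 (35.3%) fill most of the E13.5 bar, whereas Bmp6 fills 65.8% to 71.4% of the adult bars.

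Among the members as a whole, 9 of 10 passed the filter on low counts in each embryonic comparison, and Grem1 did not. Against unoperated adults, 7 were higher and 1 lower, where 44.1% of 12766 tested features were higher and 39.7% lower. Against sham, 5 were higher and 2 lower, where 40.7% of 18677 features were higher and 35.6% lower. With over 3 in 4 features called in either comparison, a call alone sets no member apart. The median log2 fold change of the 9 was 1.32 against unoperated adults and 1.72 against sham, beside 0.07 and 0.12 over all features. Bmp10 entered these medians as a fitted value, and at its bound they would be the same.

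On the TMM scale, the log2 fold changes of both receptors between stages were 0.50 or less in size, and those of the ligands 1.32 or more. Bmpr1a encodes the type I receptor ALK3, which is required in cardiomyocytes for cushion and septum formation in mice. Bmpr2 encodes the main type II receptor for BMPs, whose mutation in humans causes heritable pulmonary arterial hypertension. Per kilobase, Bmpr2 stood at 18.7 ± 1.07 CPM at E13.5 and Bmpr1a at 9.75 ± 1.61 (SD, n = 7), both within the range between Bmp5 (5.22) and Bmp7 (58.4).

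**Figure D3:**
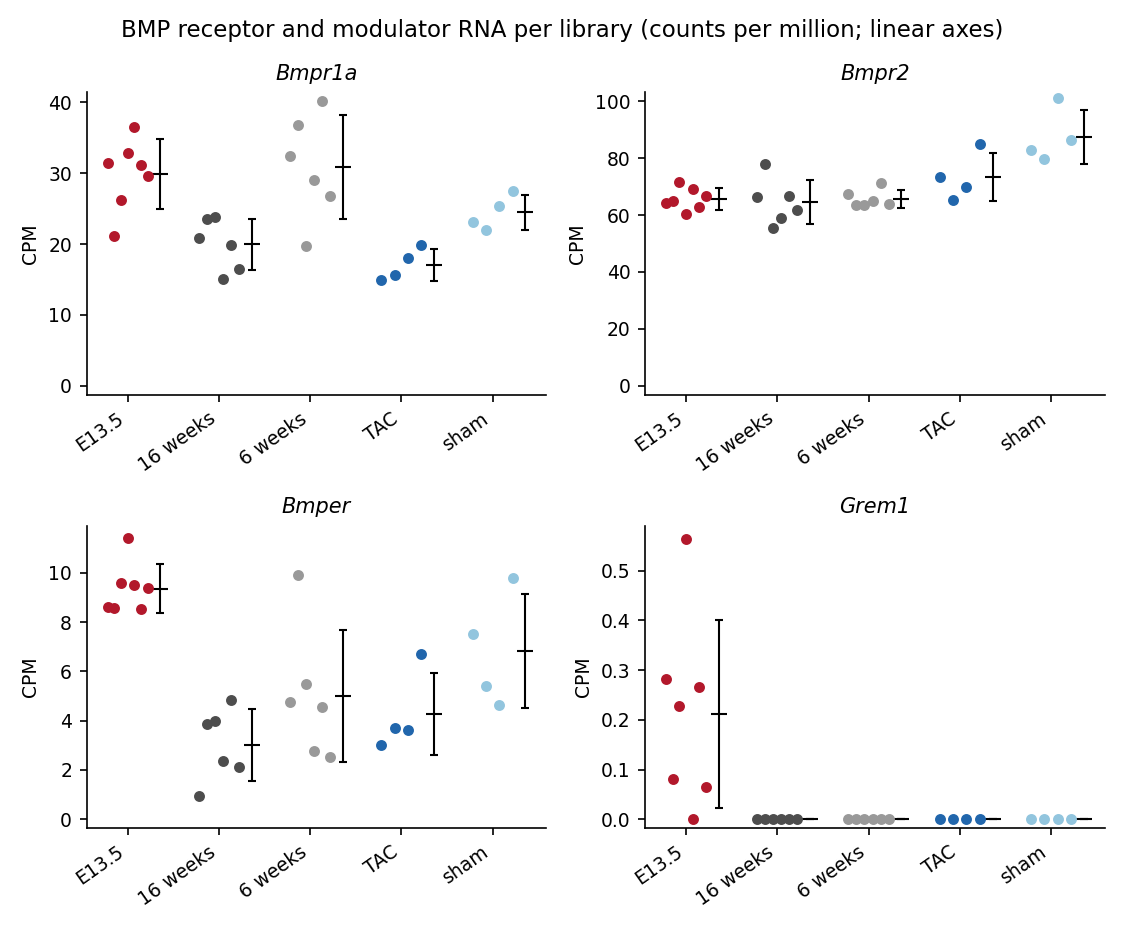
CPM of the receptor and modulator genes in every library (points), with group mean and SD (black); groups and n as for the ligands. Bmpr1a in TAC (14.9 to 19.8 CPM) lies below sham (22 to 27.5 CPM), and Grem1 has counts only in embryos.

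Bmpr1a ranged from 21.2 to 36.5 CPM at E13.5 (median 31.2), against 15.1 to 23.8 CPM at 16 weeks (median 20.4) and 19.7 to 40.2 CPM at 6 weeks (median 30.8). The embryonic values overlapped those of both ages. The log2 fold change against unoperated adults was 0.26 ± 0.117 (edgeR's quasi-likelihood test, adjusted p = 0.0404). That call ended without any 1 of 8 of the 19 libraries (E13.5 replicates 4, 5 and 6, 6-week replicates 3, 4 and 6, and 16-week replicates 4 and 6), with adjusted p up to 0.0873. It also ended with limma-voom (0.26, adjusted p = 0.0574), with a filter of 1 CPM (0.22, 0.0793) and without the libraries with discordant sex labels (0.21, 0.174). Against sham, with 23.1, 22, 25.4 and 27.5 CPM within the embryonic range, Bmpr1a did not pass (0.19 ± 0.119, adjusted p = 0.157), but it did without E13.5 replicate 2 (0.23, adjusted p = 0.0309), with upper-quartile scaling (0.35, 0.0115), without a filter (0.26, 0.0271) and with all 27 libraries in 1 fit (0.28, 0.0417).

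Bmpr2 ranged from 60.3 to 71.5 CPM at E13.5 (median 65), against 55.6 to 78.1 CPM at 16 weeks (median 64) and 63.4 to 71.4 CPM at 6 weeks (median 64.4). The 3 groups overlapped, with a log2 fold change of 0.01 ± 0.0613 (edgeR's quasi-likelihood test, adjusted p = 0.885). Without a filter on low counts it passed as higher (0.19, adjusted p = 0.0321). The sham libraries had 83, 79.6, 101 and 86.4 CPM, above every embryo. Against sham the log2 fold change was -0.50 ± 0.0681 (adjusted p = 1.32e-06), but it turned to 0.32 on total counts.

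The size of both receptor results at E13.5, and the direction of Bmpr2 against sham, changed with the scaling. On total counts without a scaling factor, which moved the median log2 fold change of all features by 0.623 against unoperated adults and by 0.824 against sham, Bmpr2 came out higher at E13.5 in both comparisons (0.63 and 0.32). Bmpr1a was then higher in both as well, by 0.88 ± 0.121 and 1.02 ± 0.125 (edgeR's quasi-likelihood test, adjusted p = 1.4e-07 and 2.98e-07), the second value exceeding the size of the Bmp6 change on that scale. On total counts 8245 features were higher and 3000 lower against unoperated adults (TMM 5631 and 5065), and 12675 higher and 3279 lower against sham (TMM 7597 and 6657). The called ligands kept their direction on it, and Bmp6 still fell (-1.16 and -0.94). Upper-quartile scaling moved the median by 0.117 and 0.165. Among the other pathway genes described below, total counts turned 2 of the lower calls against unoperated adults (Eng and Furin) and 4 of those against sham (Eng, Furin, Id1 and Atoh8), genes named here after their values were seen. Erythroid markers, chiefly haemoglobin genes, summed to 12600 to 46300 CPM at E13.5, against 291 to 504 at 16 weeks, 117 to 268 at 6 weeks and 127 to 238 in sham hearts, and their part in the scaling was not tested.

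Bmper encodes a chordin-like secreted protein that binds BMPs and, depending on its amount, inhibits or enhances their signalling. It ranged from 8.52 to 11.4 CPM at E13.5 (median 9.37), against 0.929 to 4.85 CPM at 16 weeks (median 3.11) and 2.53 to 9.9 CPM at 6 weeks (median 4.66). All but 1 unoperated adult library lay below every embryo. The fitted log2 fold change was 1.25 ± 0.191 (edgeR's quasi-likelihood test, adjusted p = 6.67e-07). Against sham, with 7.51, 5.39, 4.62 and 9.79 CPM and the highest within the embryonic range, it was 0.34 ± 0.17 and did not pass (adjusted p = 0.0784), although it did without sham replicate 4 (0.56, adjusted p = 0.00652). It also passed with upper-quartile scaling (0.50, adjusted p = 0.0104), on total counts (1.16, 2.3e-06), without a filter (0.40, 0.0252) and with a filter of 1 CPM (0.38, 0.0468). Without the libraries with discordant sex labels, 2 of the 4 sham libraries, it stood at -0.01 (edgeR's quasi-likelihood test, adjusted p = 0.952).

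Grem1 encodes gremlin 1, an antagonist of BMP2, BMP4 and BMP7. It had 5, 1, 3, 6, 0, 4 and 1 counts in the 7 embryos, 20 in all, and none in any of the 20 adult libraries. Against floors of 3 counts its RNA was at least 1.86-fold higher than in unoperated adults and at least 2.36-fold higher than in sham hearts. It was too sparse to be tested after the filter, and with 30.2% of its exonic bases to itself, its level may be understated.

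**Figure D4:**
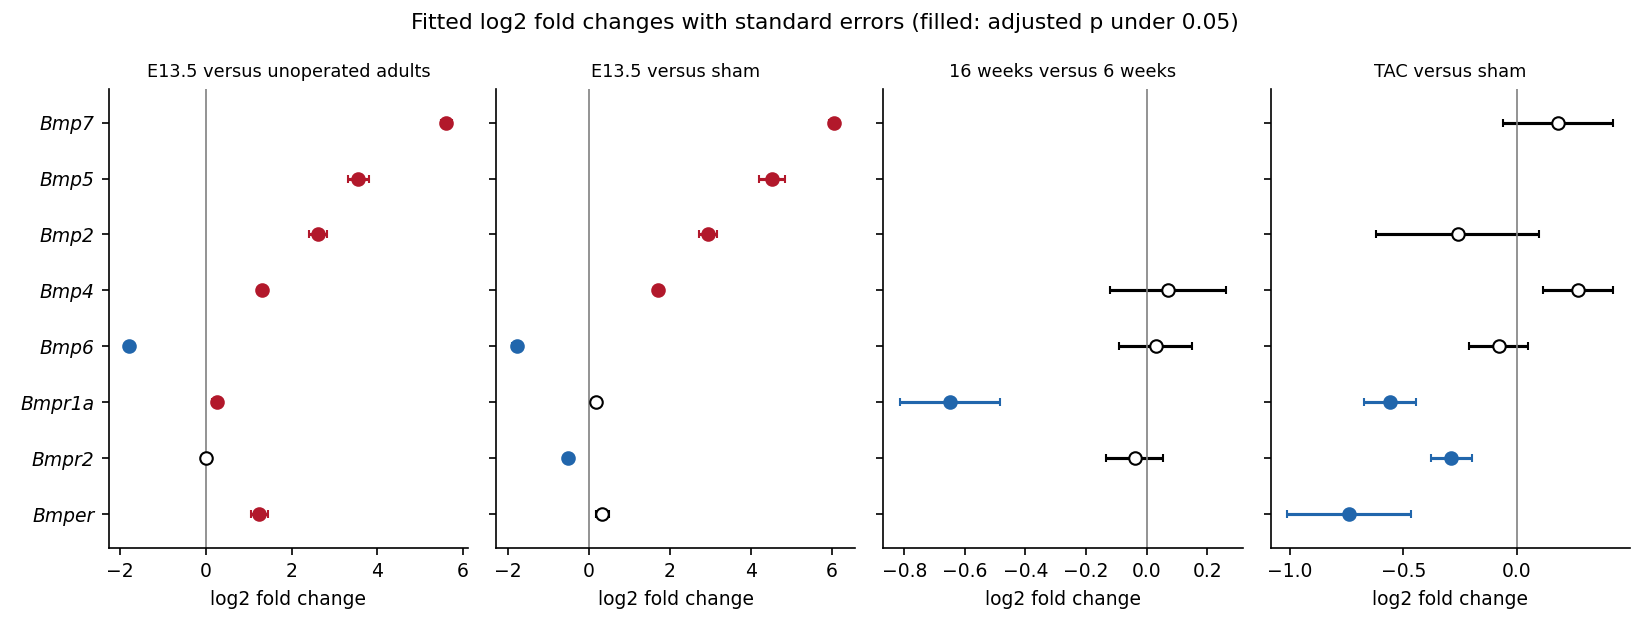
Fitted log2 fold changes of the tested members with standard errors in the 4 comparisons (each panel has its own axis). Filled points passed an adjusted p under 0.05 (red higher, blue lower) and open points did not; Bmp10, whose references held 0 or 1 count, and Grem1 are left out.

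Cell type markers moved in both directions in the embryonic contrasts. So did all features, with 44.1% higher and 39.7% lower against unoperated adults, and 40.7% and 35.6% against sham. Epicardial markers summed to 261 to 338 CPM at E13.5, against 14.4 to 26 at 16 weeks, 11.6 to 23.8 at 6 weeks and 16.8 to 22.8 in sham hearts, and all 7 were higher at E13.5. The 6 endocardial and valve markers summed to 231 to 301 CPM against 59.1 to 89.5 in the unoperated and 68.4 to 80 in the sham libraries, with Scx at 0 in both adult references, of whose exonic bases 1.33% lie outside other features. Of the 9 atrial markers, 5 of 8 tested were higher and 1 lower against unoperated adults, and 7 and 1 against sham, with Sln at 0 in all groups, as it has no exonic base outside another feature and could not be judged. Their sum was 2660 to 3490 CPM at E13.5, against 735 to 1510 at 16 weeks, 274 to 1160 at 6 weeks and 296 to 339 in sham hearts. Macrophage markers went the other way. Their sums were 136 to 174 CPM at E13.5, against 313 to 353 at 16 weeks, 279 to 439 at 6 weeks and 444 to 487 in sham hearts. All 7 tested were lower in both comparisons, although on total counts 4 were lower against unoperated adults and 3 against sham. Endothelial markers summed to 848 to 1010 CPM at E13.5, against 1310 to 1480 at 16 weeks, 1260 to 1510 at 6 weeks and 1590 to 1640 in sham hearts, with 2 higher and 4 lower of 7 in either comparison. On total counts 3 of these were higher and 2 lower in either comparison. Smooth muscle and pericyte markers summed to 537 to 691 CPM at E13.5, against 732 to 1040 at 16 weeks, 922 to 1150 at 6 weeks and 1030 to 1230 in sham hearts, with 3 higher and 3 lower of 6. All 7 cardiomyocyte markers were lower at E13.5 in both comparisons, and fibroblast markers were mixed, at 4 higher and 3 lower of 7 against unoperated adults and 4 and 2 against sham. The part of these cell types in the ligand results was not tested.

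The other genes of the pathway were counted by role, from lists that, like the members, were drawn up with earlier results of these data known. The counts stand beside 44.1% of all features higher and 39.7% lower against unoperated adults, and 40.7% and 35.6% against sham. Among other ligands, 2 of 8 were tested against unoperated adults and both were higher. Gdf6, a BMP-family ligand known from joint and skeletal patterning, had a log2 fold change of 2.96 ± 0.211 and Gdf10, a ligand close to BMP3, of 2.38 ± 0.636 (edgeR's quasi-likelihood test, adjusted p = 7.9e-14 and 0.00233). Gdf10 varied widely among embryos, from 2.77 to 35.4 CPM (median 7.24). Its embryonic range overlapped those at 16 weeks (0.465 to 3.86), at 6 weeks (1.98 to 6.34) and in sham hearts (3.44 to 10.1). Gdf10 was not called against sham. Against sham, 2 of 3 tested were higher: Gdf6 (3.27 ± 0.27) and Bmp3, with 162 embryonic counts and 1 sham count (ratio 57.4, 95% Poisson interval 10.2 to 2280). Single embryos held 6 to 67 Bmp3 counts, a spread that the interval does not cover.

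Among other receptors and co-receptors, 2 were higher and 5 lower of 8 tested against unoperated adults, and 3 and 5 of 9 against sham. On total counts 3 were higher and 3 lower against unoperated adults, and 5 and 3 against sham. The steepest fall was that of Hfe2, which encodes the BMP co-receptor hemojuvelin of skeletal and heart muscle and liver. It averaged 7.61 ± 1.48 CPM at E13.5, against 297 ± 18.6 at 16 weeks, 292 ± 18.2 at 6 weeks and 290 ± 34.6 in sham hearts. Its log2 fold change was -5.27 ± 0.0919 against unoperated adults and -5.35 ± 0.118 against sham (edgeR's quasi-likelihood test, adjusted p = 1.08e-28 and 7.77e-17). Rgma, a co-receptor of the same family, fell by 2.66 on the log2 scale against unoperated adults. Bmpr1b, a type I receptor, had 200 embryonic counts and 3 sham counts (ratio 23.6, interval 7.97 to 116). Hfe2 thus shared with Bmp6 an excess in adult apexes.

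Of the 6 SMAD genes, 5 were higher against unoperated adults and 3 against sham, and none was lower. Against sham, 4 were higher with upper-quartile scaling and 6 on total counts. Against unoperated adults, 6 were higher on total counts. Smad6, the inhibitory SMAD that BMP signalling induces, ranged from 57.3 to 97.8 CPM at E13.5 (median 65.4), against 15.9 to 23.2 CPM at 16 weeks (median 20.6) and 9.54 to 23 CPM at 6 weeks (median 18.4). Its log2 fold change was 1.99 ± 0.127 against unoperated adults and 2.29 ± 0.156 against sham (edgeR's quasi-likelihood test, adjusted p = 1.85e-13 and 2.58e-09). Smad9, a signal-carrying SMAD, rose by 0.90 and 1.13 on the same scale. Smad4, the common partner, did not pass in either comparison (-0.07 and -0.15), but on total counts it was higher in both (0.56 and 0.68).

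Of the secreted antagonists and modulators outside the members, 6 were higher and 4 lower of 11 tested against unoperated adults, and 9 and 4 of 14 against sham. Fstl1, a follistatin-like glycoprotein, had log2 fold changes of 2.55 ± 0.105 and 2.73 ± 0.0688, Smoc1, a matricellular protein, 2.03 ± 0.153 against unoperated adults, and Chrdl1, a chordin-like antagonist, 2.69 ± 0.514 against sham. Of 6 processing proteases, 1 was higher and 2 lower of 3 tested against unoperated adults, and 2 and 3 of 5 against sham. On total counts 2 were higher and 1 lower against unoperated adults, and 3 and 2 against sham. The convertases diverged, with Pcsk5 at 1.96 ± 0.11 and Pcsk6 at -2.22 ± 0.192 against unoperated adults and Pcsk6 at -3.00 ± 0.0926 against sham. Tll2, a tolloid-like metalloprotease, stood at -4.30 ± 0.329 against sham. Bmp1 could not be judged, with 0.956% of its exonic bases outside other features.

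Transcriptional targets were mixed on the TMM scale. Against unoperated adults 3 were higher and 1 lower of 6 tested, and against sham 3 and 2 of 8. On total counts 5 were higher and 0 lower against unoperated adults, and 7 and 0 against sham. Msx2, a homeobox gene, had a log2 fold change of 5.74 ± 0.497 against unoperated adults and 2.54 ± 0.355 against sham (edgeR's quasi-likelihood test, adjusted p = 7.88e-11 and 2.64e-06), and Tbx20, a cardiac T-box gene, 0.99 ± 0.0707 against unoperated adults. Id4 had 195 embryonic counts and 3 sham counts (ratio 23, interval 7.77 to 113). Id2 and Id3, with 38.6% and 18.3% of their exonic bases to themselves, did not pass the filter. Embryos held 396 Msx2 counts in all, and unoperated adults 4. Id1, a canonical BMP target named here after its values were seen, averaged 24.7 CPM at E13.5, against 39.1 CPM in unoperated adults and 36.7 CPM in sham hearts. It was lower in both comparisons (-0.64 ± 0.129 and -0.67 ± 0.146, edgeR's quasi-likelihood test, adjusted p = 6.83e-05 and 0.00064), but on total counts it stood at -0.02 and 0.15 and passed in neither (0.877 and 0.309). Smad6 and Msx2 were thus higher at E13.5 and Id1 lower on the TMM scale.

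**Figure D5:**
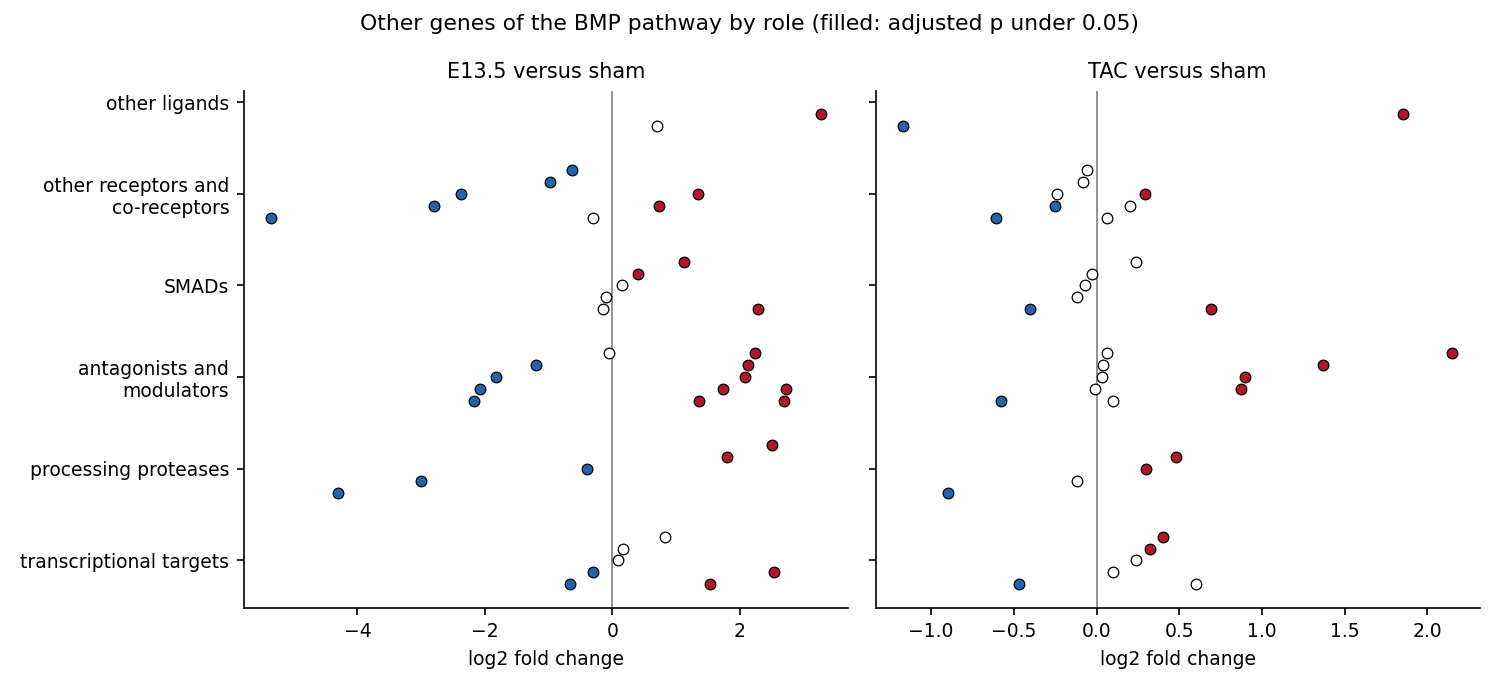
Log2 fold changes of the other tested BMP pathway genes by role, for E13.5 versus sham (left) and TAC versus sham (right), 1 point per gene, leaving out genes with 3 or fewer sham counts. Filled points passed an adjusted p under 0.05 (red higher, blue lower); the axes differ, from -5.35 (Hfe2) at left and up to 2.15 (Fstl3) at right.

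The comparison of 16 with 6 weeks asked whether the members still change within adult life. Few features did, with 1.31% of 10394 called higher and 1.19% lower. At these depths, 4 members passed the filter (Bmp4, Bmp6, Bmpr1a and Bmpr2), and 1 was called. Bmpr1a ranged from 15.1 to 23.8 CPM at 16 weeks against 19.7 to 40.2 CPM at 6 weeks, with a log2 fold change of -0.65 ± 0.165 (edgeR's quasi-likelihood test, adjusted p = 0.0364).

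The 2 ages overlapped for Bmpr1a, since 6-week replicate 3 had 19.7 CPM, within the 16-week range. The call ended without any 1 of 7 of the 12 libraries (6-week replicates 1, 2, 4 and 5 and 16-week replicates 1, 4 and 6), with log2 fold changes of -0.57 or lower and adjusted p up to 0.0972. It also ended without the 4 libraries with discordant sex labels (-0.63, adjusted p = 0.182). Bmp4 (0.07 ± 0.192), Bmp6 (0.03 ± 0.12) and Bmpr2 (-0.04 ± 0.0933) did not pass. The median of the 4 was -0.01, the same as over all features.

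The other members were too low for that test. Bmp2 had 2 to 6 counts per library at 16 weeks and 0 to 9 at 6 weeks, and Bmp5 had 0 to 4 at each age. Bmp7 had 6 to 18 counts at 16 weeks and 3 to 18 at 6 weeks, and Bmper 2 to 11 at 16 weeks and 5 to 25 at 6 weeks. Without the filter, their log2 fold changes were -0.10 for Bmp2, 0.17 for Bmp5, 0.30 for Bmp7 and -0.78 for Bmper, the lowest adjusted p being 0.333 for Bmper (edgeR's quasi-likelihood test; unadjusted 0.0194). None of the other pathway genes tested was called, among them all 6 SMADs and 8 receptors and co-receptors.

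The comparison of TAC with sham asked what pressure overload does to the pathway. Both receptors and Bmper were lower in TAC hearts, and no ligand was called. Of 7 members tested, 3 were thus lower and none higher, where 18.4% of 14555 features were lower and 19.6% higher. The median log2 fold change of the 7 was -0.26, beside 0 over all features.

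Bmpr1a had 14.9, 15.6, 18.1 and 19.8 CPM in TAC libraries, against 23.1, 22, 25.4 and 27.5 CPM in sham libraries. The groups did not overlap. For Bmpr1a the log2 fold change was -0.56 ± 0.115 (edgeR's quasi-likelihood test, adjusted p = 0.00133), and the call held without any 1 of the 8 libraries, with values of -0.63 to -0.50. Without the 4 libraries with discordant sex labels, 2 of 4 in each group, it was -0.77 (adjusted p = 0.000972).

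Bmpr2 had 73.4, 65.4, 69.9 and 84.9 CPM in TAC libraries, against 83, 79.6, 101 and 86.4 CPM in sham libraries. The highest TAC value, from the heart labelled female, overlapped the sham range. That heart had 389 Y-linked counts, against its label. The log2 fold change was -0.29 ± 0.0905 (edgeR's quasi-likelihood test, adjusted p = 0.0179). The call ended without TAC replicate 2 (-0.23, adjusted p = 0.0664) or sham replicate 3 (-0.21, adjusted p = 0.0709).

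Bmper had 3, 3.72, 3.64 and 6.72 CPM in TAC libraries, against 7.51, 5.39, 4.62 and 9.79 CPM in sham libraries. The groups overlapped through the heart labelled female, whose Y-linked counts went against that label. The fitted log2 fold change was -0.74 ± 0.274 (edgeR's quasi-likelihood test, adjusted p = 0.0469), and the call ended without any 1 of TAC replicates 1, 2 and 3 and sham replicates 1 and 4 (adjusted p 0.107 to 0.162). Without the 4 libraries with discordant sex labels, 2 of 4 in each group, it was -1.40 (adjusted p = 0.000598). That smaller fit kept the sham libraries with 7.51 and 9.79 CPM and left out the TAC library with 6.72 CPM.

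Ligand levels in TAC lay within or near the sham range. Bmp4 had 13.7, 17.5, 13.7 and 11.5 CPM in TAC against 9.61, 11.7, 14.5 and 10.1 CPM in sham libraries, a log2 fold change of 0.27 ± 0.156 that did not pass (edgeR's quasi-likelihood test, adjusted p = 0.189). Without the 4 libraries with discordant sex labels, 2 of 4 in each group, it did (0.62, adjusted p = 0.0127). Bmp6 stood at -0.08 ± 0.131, and without sham replicate 2, its low library, at -0.22 with adjusted p = 0.0414. Bmp2 (-0.26 ± 0.36) and Bmp7 (0.18 ± 0.243) did not pass. Bmp5 with 21 counts over TAC and 15 over sham libraries, Bmp10 with 3 and 1 and Grem1 with none were not tested. Bmp7 and Bmp10, which led at E13.5, averaged 3.85 and 0.08 CPM in TAC apexes, against 3.24 and 0.0276 CPM in sham apexes. An apex leaves out the atria, so these levels do not describe a whole adult heart.

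Other pathway genes moved in both directions under TAC, beside 19.6% of all features higher and 18.4% lower. Smad6 had 20.8 to 27.1 CPM in TAC libraries, against 11.7 to 16.3 CPM in sham libraries, and rose by 0.69 ± 0.123 on the log2 scale (edgeR's quasi-likelihood test, adjusted p = 0.000476). Smad5, a signal-carrying SMAD, fell by 0.40 (adjusted p = 0.000433), and the other 4 SMADs did not pass. Among receptors, Acvr2a, a type II receptor shared with activins, fell by 0.61 and Acvrl1, the endothelial receptor of BMP9 and BMP10, rose by 0.29, with 1 higher and 2 lower of 8 tested. Of 2 other ligands tested, Gdf6 rose by 1.85 ± 0.405 and Gdf10 fell by 1.17.

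Among antagonists and modulators, 4 were higher and 1 lower of 10 tested. Fstl3, a follistatin-like binder of activins that has 46.4% of its exonic bases outside other features, averaged 7.44 ± 3.33 CPM in TAC and 1.66 ± 0.434 CPM in sham hearts (SD, n = 4 each), a log2 fold change of 2.15 ± 0.343 (edgeR's quasi-likelihood test, adjusted p = 0.000428). Fstl1 averaged 330 ± 69 CPM in TAC and 124 ± 6.76 CPM in sham hearts, a log2 fold change of 1.37 ± 0.131 (adjusted p = 3.17e-05). Of 4 processing proteases tested, 2 were higher, among them Pcsk5 (0.48), and 1 was lower, Tll2 (-0.90). Of 6 targets tested, 2 were higher, among them Atoh8 (0.40), and 1 was lower, the Notch and BMP target Hey1 (-0.47).

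Cell type markers differed in the same hearts, in which 19.6% of all features were higher and 18.4% lower. Fibroblast markers summed to 1990 to 3910 CPM in TAC against 1010 to 1110 CPM in sham libraries, and 4 of 7 were higher. Macrophage markers summed to 618 to 868 against 444 to 487 CPM, with 3 of 7 higher, and endothelial markers to 1610 to 1940 against 1590 to 1640 CPM, with 1 of 7 higher. Cardiomyocyte markers summed to 110000 to 132000 CPM in TAC and 113000 to 131000 CPM in sham libraries, but 2 of 7 were higher and 3 lower. The lower ones were Ryr2 (4540 CPM in TAC against 6790 in sham hearts), Pln (367 against 667) and Tnni3 (6130 against 8030), with log2 fold changes of -0.62, -0.90 and -0.43. Epicardial markers summed to 28.6 to 45.5 CPM in TAC against 16.8 to 22.8 CPM in sham libraries, with 1 of 3 tested higher. Smooth muscle and pericyte markers summed to 1010 to 1250 against 1030 to 1230 CPM, with 3 higher and 1 lower of 6, and endocardial and valve markers to 77 to 87.3 against 68.4 to 80 CPM, with 2 of 4 tested higher. Atrial markers summed to 2540 to 3970 against 296 to 339 CPM, a list that holds Nppa. The part of cell composition in the receptor and Bmper results was not tested.

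Ordered by mean level over the 5 groups, each ligand but Bmp6 was highest at E13.5, with no overlap with the next group, and the 4 adult groups then followed with overlapping ranges. Bmp6 ran the other way, from 52.4 CPM at 16 weeks down to 46.6 CPM in TAC, with E13.5 last and apart. How many of all features set E13.5 apart in this way was not counted. Bmpr1a was highest at 6 weeks (30.9 CPM) and E13.5 (29.8), then sham (24.5), 16 weeks (20) and TAC (17.1), each overlapping the next. Bmpr2 was highest in sham (87.5 CPM) and TAC (73.4), with E13.5 and 6 weeks (65.7 each) and 16 weeks (64.6) after them, each overlapping the next. Bmper descended from E13.5 (9.37 CPM) through sham (6.83), 6 weeks (5) and TAC (4.27) to 16 weeks (3.01), again with each overlapping the next.

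The coding genes whose levels ran most like each member over the 27 libraries, among 12204 compared by Pearson's r of log2(CPM + 1), are given as a description, since the libraries share their 5 groups. For Bmp10 these were Igf2bp1 and Dgkk (r = 0.999 each) and for Bmp7 Myo16 and Cited1 (0.987 each). Bmp5 ran most like Pdk3 and Wbp5 (0.972 each), Bmp2 like Col4a6 and Gprasp2 (0.954 each) and Bmp4 like Cdh6 (0.954) and Freq (0.946). Bmp6, the leading ligand in adult apexes, ran most like Mgst3 (0.976) and Fbxo31 (0.975). The receptors followed looser partners, Uba3 (0.911) and Fyttd1 (0.815) for Bmpr1a and Cep350 (0.812) and mt-Nd3 (0.8) for Bmpr2. Bmper ran most like Pcm1 (0.882) and Arid4b (0.852), and the sparse Grem1 like Krt17 (0.892) and Cdh1 (0.868), both known from epithelia.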

How the data were processed

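The authors deposited raw counts per feature for each of the 27 libraries, which equal the columns of their series table. Per the submitters' processing notes, reads were handled with Bowtie, TopHat 1.3.0 and HTSeq on mm9 (NCBIM37); these notes also name DESeq and edgeR, without roles. Per the labels' protocols, libraries were non-stranded and single-end. From these counts, the features passing edgeR's expression filter (at least 10 counts, total 15) were fitted after TMM normalization in R 4.3.3 with edgeR 4.0.16 (robust quasi-likelihood test, two-sided), with Benjamini-Hochberg adjustment over all features tested and a threshold of 0.05. E13.5 was compared with the mean of the unoperated ages and with sham, 16 with 6 weeks and TAC with sham. An SE is the size of the log2 fold change divided by the root of its F statistic. Genes at 0 in a group were bounded against 3 counts over that group; 1 to 3 counts gave a ratio with a 95% Poisson interval. These floors and intervals cover counting error only, since PCR copies are not independent molecules.

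The members and gene lists were chosen with earlier results of these data known. Named by rule were all members, up to 2 called genes of each list and comparison with the largest change and a mean of at least 1 CPM, the 2 most correlated coding genes of each member and 4 TAC marker genes. Other settings tried were DESeq2 1.42.0, limma-voom (limma 3.58.1), upper-quartile and RLE scaling, no filter, a filter of 1 CPM in every library of a group, all 27 libraries in 1 fit, a replicate block, each library left out, and no libraries against their sex label (male-labelled with 3 or fewer Y-linked counts, or the reverse). Scaling on total counts, and all scalings of the other pathway and marker genes, were added after seeing the data. Fits were also run on simulated data with known fold changes. Those data held no wider difference in RNA make-up between groups, so they cannot judge the choice of scaling. Plots were drawn with matplotlib 3.10.9 (Python 3.11.15). The embryos' age field steps up from E13.5 from label to label while their titles give E13.5, which was used.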

Additional observations from a re-analysis of the deposited data

Results flagged for a closer look

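Each member's level was screened for a library far from the rest of its group. Of 44 sets of 4 to 7 libraries, 3 held one. Chance flags about 1 in 20 sets of normally spread values. That rate does not hold near 0, since a lone count is always flagged where the other libraries have 0. Bmp6 in sham replicate 2 stood at 33.6 CPM (293 counts), against 51 to 54.5 CPM in the other 3 sham libraries. Bmper in E13.5 replicate 4 stood at 11.4 CPM, against 8.52 to 9.57 CPM in the other 6 embryos. Bmp10 in sham replicate 1 stood at 0.111 CPM, which is 1 count, against 0 in the other 3.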

How the results depend on the processing

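Of 289 log2 fold changes of members recomputed under other settings, 265 kept direction and side of the threshold, among them all of Bmp2, Bmp4, Bmp5, Bmp6, Bmp7 and Bmp10 at E13.5 against either reference. Where results changed, the cause was not tested unless fewer samples or features made the change. Without a filter, 18408 features were called at E13.5 against unoperated adults (10696 with it), 8 members were higher against sham (5 with it) and 508 features differed between ages (260 with it). With all 27 libraries in 1 fit, 418 features differed between ages. Total-count scaling gave 8 members higher and 1 lower against sham, and turned Bmpr2 there to 0.32. Without the libraries against their sex label, 134 features and 0 members differed between ages, 1 member (Bmp4) was higher in TAC, and signs turned for Bmpr2 against unoperated adults (-0.01), Bmper against sham (-0.01), Bmp4 between ages (-0.13) and Bmp7 in TAC (-0.09). The filter of 1 CPM turned Bmpr2 against unoperated adults to -0.03.

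Leaving out 1 library gave 113 to 364 features and 0 to 1 members lower between ages, and 1 to 4 members lower in TAC. Signs turned in some such fits for Bmpr2 against unoperated adults (0 to 0.06), Bmp4 (-0.05 to 0.20) and Bmp6 (-0.05 to 0.10) between ages and Bmp2 in TAC (-0.54 to 0.01). Of same-numbered libraries, 1 of 18, 1 of 4, 1 of 6 and 0 of 3 pairs deviated together above a correlation of 0.1. With few pairs and no differently numbered pairs for comparison, these values cannot show whether the numbers pair libraries. With the replicate block, 3684 features were called in TAC (5529 without), Bmp6 in TAC turned to 0.02 and Bmpr1a against unoperated adults no longer passed (0.27, edgeR adjusted p = 0.0526), while Bmper against sham did (0.41, edgeR adjusted p = 0.0498). Depth limited the unoperated adults most, with 4 members tested between ages.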
